A study of Mus musculus with 6 samples.

Results

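The genes described here encode the plasminogen activator system: the activators Plat and Plau, the urokinase receptor Plaur, the inhibitors Serpine2 and Serpinb2, and the plasminogen receptor Plgrkt. They were chosen by name, as 6 genes listed for this system, and 4 of the 6 (Plat, Plau, Plaur and Plgrkt) were found among the 14254 genes of the deposited table. Serpine2 and Serpinb2 were not analysed here. RNA was sequenced from mouse tumour organoids, grown from pancreatic ductal adenocarcinoma (PDAC) and labelled as line KPF_5.3G. The tested organoids carried a lentiviral short hairpin RNA against Jag1, a ligand of the Notch receptors (shJag1_3, genotype given as Jag1 knockdown, 3 libraries). The others carried a control hairpin (shCtrl, genotype given as WT, 3 libraries). All 6 libraries come from the same line and were grown without other treatment in a medium whose added factors were Noggin, R-spondin-1, gastrin, EGF and FGF-10, and only 1 hairpin against Jag1, numbered 3, was used. The design asks what Jag1 does in tumour-initiating cells of a hybrid epithelial-mesenchymal state.

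Plasminogen circulates as an inactive precursor and is cut to the protease plasmin by tissue-type activator (Plat) or urokinase (Plau). Urokinase is held at the cell surface by its receptor Plaur, and plasminogen itself by surface proteins such as Plgrkt and the annexin A2 complex, so that plasmin is made next to the cell. Inhibitors of the serpin family block the activators. In pancreatic cancer the system is known for its part in matrix breakdown, invasion and fibrin turnover.

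The libraries held between 22110664 and 35010147 reads on genes. Both replicate 1 libraries, of shJag1_3 and of shCtrl, stood apart from the other 4, and libraries with the same replicate number deviated together from their group means. Mitochondrial genes took 0.555%, 1.02% and 1.20% of reads on genes in shJag1_3 libraries 1, 2 and 3, against 0.595%, 1.55% and 2.03% in shCtrl libraries 1, 2 and 3. This share was low in both replicate 1 libraries and lower in the knockdown library of every pair, and its part in the results was not tested. Each result is therefore given per library and per pair of the same number. Jag1 was at 226, 321 and 557 normalised counts in shJag1_3 libraries 1, 2 and 3, against 412, 983 and 847 in shCtrl libraries 1, 2 and 3. Each knockdown library was below its own control, and the groups overlapped. Its log2 change was -1.03 in limma (SE 0.45, adjusted p = 0.691) and -1.02 in DESeq2 with replicate number as a term (SE 0.27, adjusted p = 0.0063). The DESeq2 call was kept without pair 1 (adjusted p = 0.0026) and lost without pair 2 (adjusted p = 0.788) and without pair 3 (adjusted p = 0.0812). Of the 9 epithelial markers checked, all 9 were in the table, and their summed normalised count was 229580 to 590912 in shJag1_3 and 175417 to 241391 in shCtrl. Of the markers checked for other cells, 2 of 10 for fibroblasts (Pdgfra and Pdgfrb, summed 28.9 to 45.5 in shJag1_3 and 35.6 to 44.8 in shCtrl) and 2 of 8 for endothelium (Tek and Tie1, summed 43.0 to 59.6 in shJag1_3 and 7.47 to 69.6 in shCtrl) were in the table. Of 9 leukocyte markers, Cd68 and Cd14 were in it, with a sum of 2060.2 to 5297 in shJag1_3 and 973 to 9196 in shCtrl, and of 9 acinar and endocrine markers Cela1 was. The other markers of these lists were not analysed here. Fewer cells expressing a gene and less of its RNA per cell cannot be told apart in these bulk samples.

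Of the 4 members in the table, promoter sequence from RefSeq (GRCm38.p6) was matched by symbol for 2, Plaur and Plgrkt. The 250 bases before the RefSeq start of each are shown so that the urokinase receptor, 1 of the genes whose values are described most fully here, can be read beside a plasminogen receptor of the same system. The RefSeq start of Plgrkt lies inside the gene bounds of the GENCODE annotation given further on. Capitals mark the AP-1 motif TGANTCA, which reads the same on both strands. The Plaur window lies on the plus strand at chr7:24462233-24462482 and the Plgrkt window on the minus strand at chr19:29361872-29362121.
Plaur: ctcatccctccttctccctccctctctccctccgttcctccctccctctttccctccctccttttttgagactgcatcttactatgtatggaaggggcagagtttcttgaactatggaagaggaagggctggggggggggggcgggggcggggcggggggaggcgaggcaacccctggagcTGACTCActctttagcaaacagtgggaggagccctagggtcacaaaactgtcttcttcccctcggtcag
Plgrkt: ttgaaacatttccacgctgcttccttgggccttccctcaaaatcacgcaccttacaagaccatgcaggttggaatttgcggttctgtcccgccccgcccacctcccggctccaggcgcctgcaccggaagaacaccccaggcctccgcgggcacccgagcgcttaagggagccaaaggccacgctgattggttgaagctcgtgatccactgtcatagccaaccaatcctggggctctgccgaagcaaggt
The Plaur window held 1 AP-1 motif, whose first base lies 69 bases before the start, and the Plgrkt window held 0. Of 32851 RefSeq promoter windows of the same length, 6.75% held this motif. The SP1 motif GGGCGG, searched on both strands, stood 3 times in the Plaur window and 2 times in the Plgrkt window, and 32.7% of all windows held it. The PEA3/ETS motif AGGAAG, searched likewise, stood 1 time in each window, and 29.5% of all windows held it. The RBPJ motif TGGGAA, through which Notch receptors reach DNA, was searched on both strands and had 0 matches in either window, against 21.6% of all windows. The ZEB/SNAI motif CACCTG and the TEAD motif CATTCC also had 0 matches in either window, and 17.2% and 12.6% of all windows held them. Such matches describe letters in these windows and show no binding.

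Tissue-type plasminogen activator was the member that differed most between libraries, and it did so by replicate number more than by hairpin. Plat (ENSMUSG00000031538, chromosome 8, 22757727 to 22782844, plus strand, GRCm38) was at 234, 9764 and 6125 normalised counts in shJag1_3 libraries 1, 2 and 3, against 254, 17242 and 10825 in shCtrl libraries 1, 2 and 3. Both replicate 1 libraries were low, and the groups overlapped. Replicates 2 and 3 were 41.7 and 26.2 times replicate 1 within shJag1_3, and 68.0 and 42.7 times replicate 1 within shCtrl. Of the 13997 tested genes, 34 (0.243%) had all 4 libraries of replicates 2 and 3 at least 10 times above both replicate 1 libraries, and Plat was 1 of them. Within pairs the knockdown had 0.924, 0.566 and 0.566 times the control's Plat count in pairs 1, 2 and 3, which on the log2 scale is a difference of -0.11, -0.82 and -0.82. Without the replicate term, limma gave a log2 change of -0.59 (SE 1.97, adjusted p = 0.973). With the term the SE was 0.18 in limma (adjusted p = 0.183), and DESeq2 with the term gave -0.60 (SE 0.21, adjusted p = 0.0598). Plat thus passed none of these tests on all 6 libraries. On replicates 2 and 3 alone it was at -0.82 in limma without the term (adjusted p = 0.152), in limma with the term (adjusted p = 0.00136) and in DESeq2 with the term (adjusted p = 5.08e-04). Both fits with the term on these 4 libraries were added after seeing the data. They called 10.2% of all genes lower and 23.7% in either direction in limma, and 6.57% lower and 16.2% in either direction in DESeq2.

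Urokinase and its receptor were both higher in the knockdown of every pair. Plau (ENSMUSG00000021822, chromosome 14, 20836660 to 20843385, plus strand) was at 143, 294 and 176 normalised counts in shJag1_3 libraries 1, 2 and 3, against 103, 122 and 118 in shCtrl libraries 1, 2 and 3. The groups did not overlap, and shJag1_3 library 2 was the highest. The means were 204 ± 79.3 in shJag1_3 and 114 ± 10.1 in shCtrl (SD, n = 3 each). The log2 change was 0.77 (SE 0.34) in limma, with an adjusted p of 0.691, and a two-sided permutation test, exact over the 6 libraries, had p = 0.1, the smallest that 3 against 3 libraries allow. With the replicate term, limma gave Plau an adjusted p of 0.200 and DESeq2 one of 0.152, so it passed no test on all 6 libraries.

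The receptor was the more abundant gene. Plaur (ENSMUSG00000046223, chromosome 7, 24462484 to 24475968, plus strand) was at 5453, 13868 and 16141 normalised counts in shJag1_3 libraries 1, 2 and 3, against 3821, 7555 and 8503 in shCtrl libraries 1, 2 and 3. Each knockdown library was above its own control, at 1.43, 1.84 and 1.90 times in pairs 1, 2 and 3. Both replicate 1 libraries were the lowest of their group. The groups overlapped because shJag1_3 library 1 was below shCtrl libraries 2 and 3. The limma log2 change was 0.77 (SE 0.48, adjusted p = 0.788), and with the replicate term the SE was 0.14 (adjusted p = 0.147). In DESeq2 with the replicate term Plaur rose by 0.77 (SE 0.18, adjusted p = 9.53e-04), 1 of 4 members called, where this fit called 4.73% of all genes higher and 7.43% in either direction. The call was lost without pair 2 (adjusted p = 0.44) and without pair 3 (adjusted p = 0.309), and it was kept without pair 1 (adjusted p = 1.01e-04). In limma on replicates 2 and 3 only, Plaur rose by 0.90 (adjusted p = 0.0256), where 6.04% of all genes were called higher, 3.57% lower and 9.62% in all. It was the 1 member of 4 called there too.

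Plgrkt, a membrane protein that binds plasminogen through its C-terminal lysine, varied less between replicates than the other 3 members. Plgrkt (ENSMUSG00000016495, chromosome 19, 29348599 to 29367390, minus strand) was at 760.4, 976 and 802 normalised counts in shJag1_3 libraries 1, 2 and 3, against 681, 626 and 668 in shCtrl libraries 1, 2 and 3. The groups did not overlap, and here the replicate 1 libraries were not set apart. The log2 change was 0.35 (SE 0.18) in limma, with an adjusted p of 0.727, and 0.38 was its adjusted p in DESeq2 with the replicate term. With Plau, 2 of the 4 members were higher without overlap, where 6.29% of all tested genes were, and 0 members were lower without overlap, where 5.44% of all genes were. Plau, Plaur and Plgrkt were higher in all 3 pairs and Plat was lower in all 3, where 22.3% of all genes were higher and 19.7% lower in all 3 pairs. Over the 4 members the median limma log2 change was 0.56, beside 0.00 over all tested genes.

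**Figure D1:**
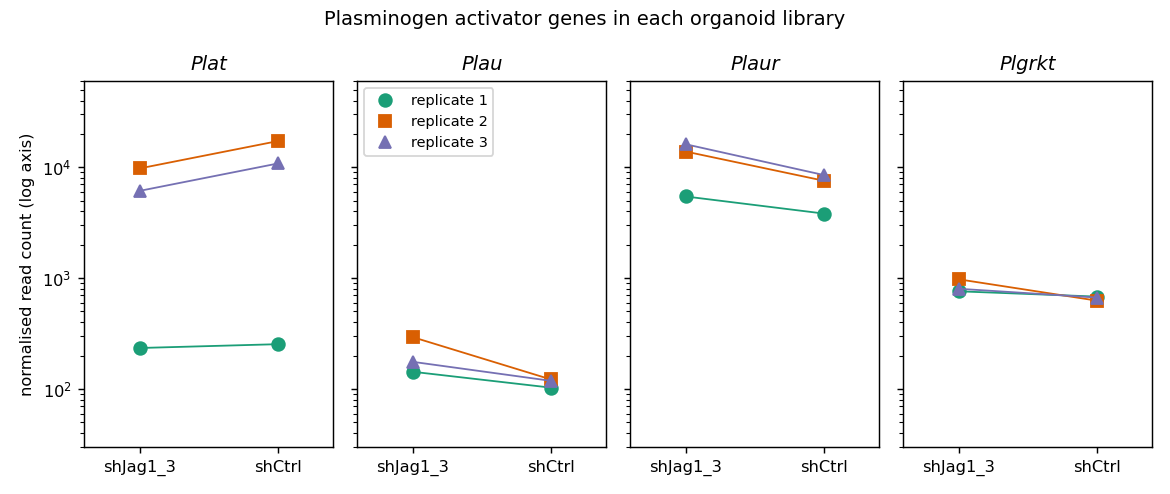
Normalised read count on a log axis of the 4 members in each library, shJag1_3 on the left and shCtrl on the right of each panel, with lines joining libraries of the same replicate number. Plat separates by replicate number (234 and 254 in both replicate 1 libraries), whereas Plau, Plaur and Plgrkt are higher in the knockdown of each pair.

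Levels of different genes were set side by side as normalised counts per kb of exon. Exon length counted every base in any annotated exon of a gene. It was 6241 bases for Plat, 2367 for Plau and 2617 for Plaur, and the order of the genes depends on it. Per kb, Plaur had the highest of the 4 members in every library. It was at 2084, 5299 and 6168 per kb in shJag1_3 libraries 1, 2 and 3, and 1460.1, 2887 and 3249 per kb in shCtrl libraries 1, 2 and 3. Plat was close to it in shCtrl library 2, at 2763 per kb. In undivided counts Plat was above Plaur in shCtrl libraries 2 and 3, at 17242 against 7555 and 10825 against 8503. Plau was at 60.4, 124 and 74.2 per kb in shJag1_3 and at 43.4, 51.4 and 50.0 per kb in shCtrl. The receptor's mRNA thus exceeded that of its ligand by 34.5, 42.7 and 83.1 times per kb in shJag1_3 libraries 1, 2 and 3, and by 33.6, 56.1 and 65.0 times in shCtrl libraries 1, 2 and 3, which overlap. Plat stood above Plau by 12.6 and 13.2 times per kb in shJag1_3 libraries 2 and 3, and by 53.7 and 34.7 times in shCtrl libraries 2 and 3. In both replicate 1 libraries Plat was below Plau per kb, at 0.621 times in shJag1_3 and 0.936 times in shCtrl. In undivided counts Plat was above Plau there, at 234 against 143 in shJag1_3 and 254 against 103 in shCtrl. These ratios were chosen after the values had been seen and carry no test.

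**Figure D2:**
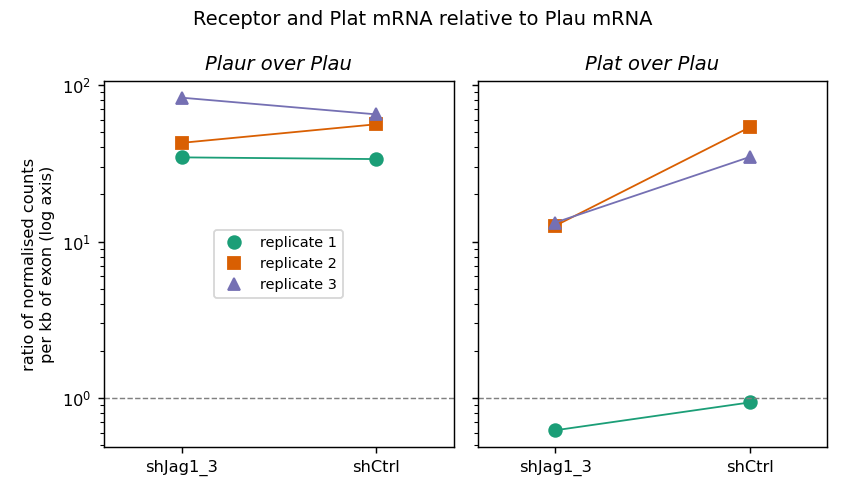
Ratio of normalised counts per kb of exon, on a log axis, of Plaur (left panel) and Plat (right panel) to Plau in each library, shJag1_3 left of shCtrl, with lines joining the same replicate number and a dashed line at equal levels. Plaur lies 34.5 to 83.1 times above Plau in shJag1_3 and 33.6 to 65.0 times in shCtrl, and Plat lies below Plau in both replicate 1 libraries (0.621 and 0.936).

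Other genes of the system were taken from 8 lists, and limma without the replicate term called 0 genes in any of them, as it called 0 (0%) of all 13997 genes. With the replicate term limma called 0 of the 4 members and 0 list genes, where it called 0.0143% of all genes. At an unadjusted p below 0.05 there were 1021 genes in limma and 1021 in edgeR, both without the term, where edgeR called 0 too. With the replicate term edgeR called 2 of all genes. St14, Spint1 and Plaur did not pass in that edgeR fit, with adjusted p of 0.170, 0.155 and 0.173. The counts, log2 changes and adjusted p-values that follow are of DESeq2 with the replicate term, which called 4.73% of genes higher and 2.71% lower. Of its 13 called genes named from the lists, 2 (St14 and Spint1) stayed called without each pair in turn, and the other 11 were called without pair 1 but lost the call without pair 2 and without pair 3.

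Of the 3 tested inhibitors, from 10 listed, 0 rose and 0 fell. Serpinb6a, an intracellular serpin, was at 0.42 on the log2 scale (adjusted p = 0.188 in DESeq2). Serpini1, or neuroserpin, an inhibitor of Plat, was at 182, 187 and 186 normalised counts in shJag1_3 libraries 1, 2 and 3, against 261, 196 and 153 in shCtrl libraries 1, 2 and 3. Its groups overlapped, with a log2 change of -0.11 (adjusted p = 0.92 in DESeq2). Among 6 tested clade B serpins, the family of Serpinb2, 1 rose, 1 fell and 4 did not pass. Serpinb1a rose by 1.20 and Serpinb9 fell by 1.67, with DESeq2 adjusted p of 5.03e-04 and 0.0114. Serpinb1a, an inhibitor of neutrophil proteases, was at 5819, 9686 and 9628 normalised counts in shJag1_3 libraries 1, 2 and 3, against 4089, 2799 and 3882 in shCtrl libraries 1, 2 and 3. Serpinb9, an inhibitor of granzyme B, was at 47.4, 31.9 and 42.8 in shJag1_3 and at 80.4, 188 and 142 in shCtrl. Neither gene's groups overlapped.

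Of 7 tested proteins that bind plasminogen at the surface, 3 rose, 0 fell and 4 did not pass. Annexin A2 (Anxa2), which forms a complex with S100a10 that binds plasminogen and Plat, rose by 0.88 (SE 0.27, adjusted p = 0.0231 in DESeq2). Its normalised counts were 36839, 111155 and 70942 in shJag1_3 libraries 1, 2 and 3, against 33415, 39097 and 35987 in shCtrl libraries 1, 2 and 3, so that pair 1 differed little. Keratin 8 (Krt8) rose by 1.08 and enolase (Eno1), a glycolytic enzyme also found at the surface, by 0.52, with DESeq2 adjusted p of 8.67e-04 and 0.0285. Krt8 and Krt18 are also among the epithelial markers summed above, so that sum moves with them in part because it includes them. Krt18 was at 0.34 (adjusted p = 0.38).

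Of 5 tested receptors that take up activator and inhibitor complexes, 1 rose and 0 fell. Lrp1, which clears complexes of the activators with their inhibitors, rose by 1.402 (SE 0.33, adjusted p = 0.00115 in DESeq2). It was at 111, 496 and 361 normalised counts in shJag1_3 libraries 1, 2 and 3, against 25.7, 218 and 176 in shCtrl libraries 1, 2 and 3. The others did not pass, with Vldlr at -0.01 and the sorting receptor Sort1 at -0.06 on the log2 scale. Of 9 tested partners of the urokinase receptor 0 were called, and the integrins Itgb1 and Itga3 were at 0.03 and -0.41 (adjusted p = 0.962 and 0.116 in DESeq2).

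Of the genes listed for proteins cut or activated by plasmin or its activators, 9 were tested. Their median log2 change in limma was -0.47, beside 0.00 over all genes. The collagenase Mmp13 was the 1 called. It fell by 2.46 in DESeq2, with an SE of 0.55 and an adjusted p of 5.54e-04. It was at 2.63, 36.9 and 43.6 normalised counts in shJag1_3 libraries 1, 2 and 3, against 4.14, 341 and 227 in shCtrl libraries 1, 2 and 3. The cytokine Tgfb1 was at -0.26 and tissue factor (F3), the starter of coagulation, at 0.87 (adjusted p = 0.574 and 0.0827 in DESeq2). The pairs of F3 differed in direction, with the knockdown at 0.850, 2.36 and 2.99 times the control in pairs 1, 2 and 3.

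Of 12 tested genes for other serine proteases of the cell surface and their inhibitors, 4 rose, 0 fell and 8 did not pass. Of all genes, 4.73% were called higher. Matriptase (St14), known to activate urokinase, rose by 1.96 (SE 0.30, adjusted p = 4.54e-08 in DESeq2). It was at 8984, 8300.4 and 6177 normalised counts in shJag1_3 libraries 1, 2 and 3, against 4410.1, 1490 and 1208 in shCtrl libraries 1, 2 and 3, with no overlap. Its inhibitor Spint1 rose by 1.21 (SE 0.21, adjusted p = 1.81e-06 in DESeq2), with 5922, 6299 and 5065 in shJag1_3 against 3424, 2362 and 1881 in shCtrl. Prostasin (Prss8) and Tmprss2 rose by 1.18 and 1.25, with DESeq2 adjusted p of 0.0022 and 0.00509, but the groups of each overlapped. Prss8 was at 489, 460 and 234 in shJag1_3 libraries 1, 2 and 3, against 249, 144 and 126 in shCtrl. Tmprss2 was at 9169, 7574 and 6687 in shJag1_3, against 7915, 1826 and 2442 in shCtrl. Spint2 was at 0.41 on the log2 scale. These proteases and inhibitors are made by epithelial cells. The epithelial marker sum was at 229580, 590912 and 357746 in shJag1_3 libraries 1, 2 and 3, against 175417, 241391 and 214644 in shCtrl. The sum was higher in the knockdown of every pair, and its groups overlapped. It was lowest in replicate 1 of each group. St14, Prss8 and Tmprss2 were highest in replicate 1 of each group, and Spint1 in shCtrl only. The part of epithelial content in the result was not tested.

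Of 14 transcription factors known to act on the urokinase and receptor genes, Jun rose by 0.66 and Hif1a fell by 0.57 (adjusted p = 0.016 and 0.00887 in DESeq2), and 12 did not pass. Jun, a component of AP-1, was at 1199.8, 1057 and 1233 normalised counts in shJag1_3 libraries 1, 2 and 3, against 867, 651 and 704 in shCtrl libraries 1, 2 and 3. Junb and Jund, also of AP-1, were at 0.41 and 0.26 (adjusted p = 0.115 and 0.432).

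**Figure D3:**
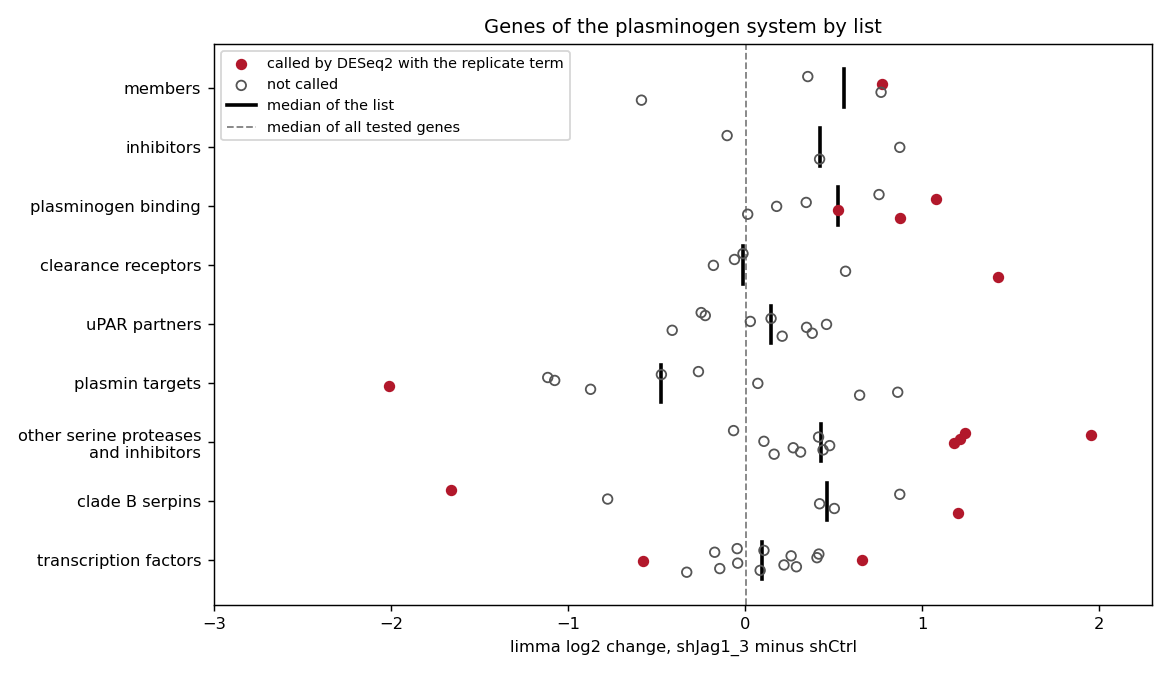
Limma log2 change (shJag1_3 minus shCtrl) of every tested gene of the 4 members and of the 8 lists, filled where DESeq2 with the replicate term called it, with a bar at each list's median (0.56 for the members) and a dashed line at the median of all tested genes (0.00). The 3 inhibitors are open, and the list of other serine proteases and inhibitors holds 4 called genes.

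**Figure D4:**
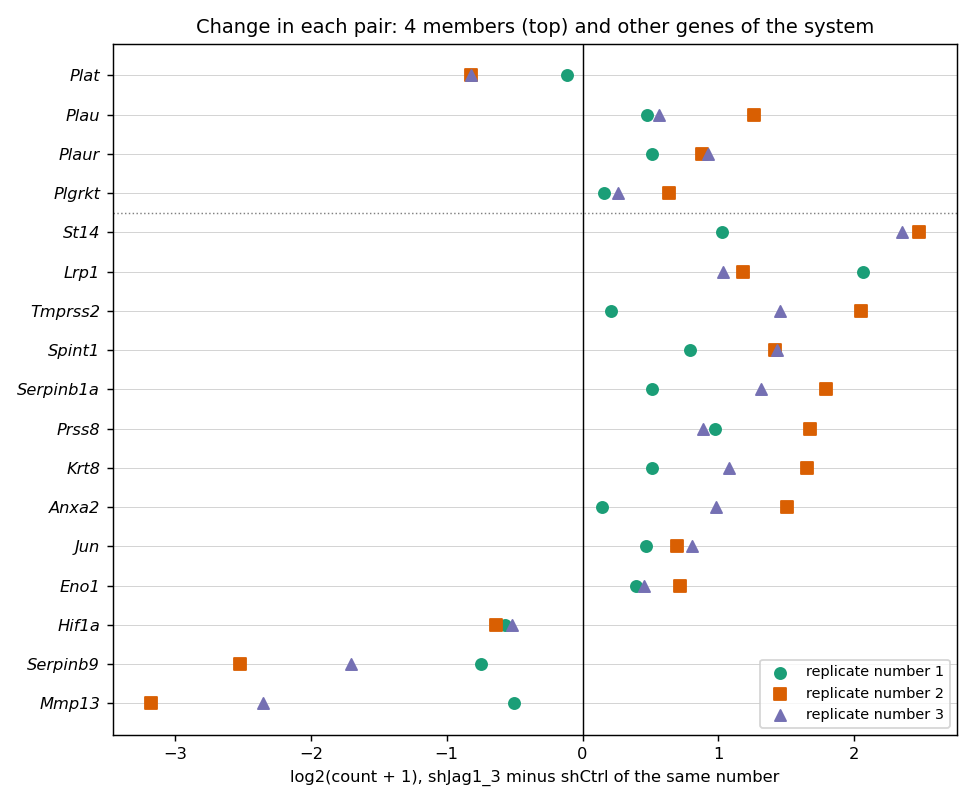
Difference in log2 (normalised count + 1) between the shJag1_3 and the shCtrl library of the same replicate number, for the 4 members and the called genes of the lists. Plaur differs by 0.51, 0.88 and 0.92 in pairs 1, 2 and 3, and Plat by -0.11, -0.82 and -0.82.

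Genes that most resembled each member across the 6 libraries were found by Pearson's r of the log2 values among 11625 genes with a mean of at least 50. These values share libraries and carry no test. Plat was most like Lif, Slc12a4 and Cfap69, at r = 0.9992, 0.9991 and 0.9988, and Lif, a cytokine, was at 199.96 and 211 normalised counts in the replicate 1 libraries of shJag1_3 and shCtrl. Plau was most like Ciao2b (r = 0.9994), Hgs (r = 0.995) and Hk1 (r = 0.989). Plaur was most like Tnfaip3, Atf3 (both r = 0.994) and Abcc3 (r = 0.993). Plgrkt was most like S100a11 (r = 0.994), Vdac2 and Ubap1 (both r = 0.990).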

How the data were processed

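Per the labels' protocols, libraries were made from total RNA with an Illumina TruSeq kit that does not mark strand. The submitters' processing notes name Trimmomatic, STAR 2.5.2b, DESeq2 1.32.0 and GRCm38, and the counting tool and annotation are not given in the sources used here. The deposited signal values are normalised counts, in which the authors divided read counts by 1 size factor per library. Within 0.001 of a read, 100% of values were whole multiples of 1 step, so whole reads could be recovered. All 6 deposited tables were identical, and 1 was used. The table held 14302 features, 48 of them ERCC spike-ins, which entered no test. Positions, exon lengths and symbols are of GENCODE M21 (GRCm38), with a symbol for 14219 genes. No exon of Plat, Plau, Plaur or Plgrkt overlapped another annotated gene.

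Groups came from sample titles. The test was limma-trend (limma 3.58.1, R 4.3.3) on log2(normalised count + 1), for 13997 genes at 10 or more in at least 3 libraries, with Benjamini-Hochberg adjustment over all of them, a threshold of 0.05 and no covariate. This log2 scale understates changes of low genes. edgeR 4.0.16 and DESeq2 1.42.0 were run on the recovered reads with the same genes, DESeq2 leaving 13454 with an adjusted p. Each kind of fit was also run on simulated data. The simulated differences between replicates were much smaller than those of Plat here, so that run cannot vouch for the calls. Same-numbered libraries' deviations from the group means correlated at r = 0.68, 0.57 and 0.44 for numbers 1, 2 and 3, above 0.1 each, so the numbers were treated as pairs. Unlike numbers also exceeded 0.1, at r = 0.38 for knockdown 2 with control 3 and 0.37 for knockdown 3 with control 2. The check thus sets number 1 apart, but it cannot establish that numbers 2 and 3 are true pairs. No label explains the numbers. The series text calls the replicates biological and names no separate cultures, so p-values measure the spread between these libraries, which may be technical.

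The members and lists were chosen with earlier results of these data known. Some list genes are not reported here and are left out of the lists' counts and medians. Named from each list were the 2 tested genes with the highest mean and up to 4 called genes, and for likeness the 3 genes with the highest r. Alternatives changed the pseudocount, filter, scaling, test, replicate term and libraries. The fits with the replicate term that leave out pair 1, 2 or 3 were added after seeing the data.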

Additional observations from a re-analysis of the deposited data

How the results depend on the processing

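Limma without the replicate term called 0 genes, also with a pseudocount of 0.5 or 8, no filter, a filter at 50, CPM scaling and edgeR. The count was 2 with the replicate block in limma and in edgeR, 174 in DESeq2, 1000 in DESeq2 with the replicate block, 116 with spike-in scaling and 1346 on replicates 2 and 3 only. Leaving out 1 library gave 0 to 294 genes, 294 without shCtrl replicate 1. With the replicate block and without replicates 1, 2 and 3 in turn, the count was 3317, 0 and 0 in limma and 2178, 100 and 128 in DESeq2. Of the 1000 genes, 922, 95 and 123 stayed called without pairs 1, 2 and 3. Spike-in scaling moved the median log2 change of all genes by -0.18 from 0.00, and Itgb1 was then at -0.15. Under that scaling Plat was at -0.765, Plau at 0.588, Plaur at 0.591 and Plgrkt at 0.174, where its main value was 0.354. Plaur passed in DESeq2 with the replicate block (0.77) and on replicates 2 and 3 only (0.90), and Jag1 in DESeq2 with the replicate block (-1.02). With libraries left out, the log2 change ran from -2.50 to 1.09 for Plat, 0.47 to 0.99 for Plau, 0.42 to 1.26 for Plaur, 0.21 to 0.45 for Plgrkt and -1.41 to -0.73 for Jag1. Plat turned positive without shJag1_3 replicate 1 (1.09), shCtrl replicate 2 (0.54) or shCtrl replicate 3 (0.20), since its level followed the replicate number and such a fit leaves the numbers uneven. Without both replicate 1 libraries and with the block, Plat (-0.82), Plau (0.92), Plaur (0.90) and Jag1 (-1.11) passed in limma, and Plat, Plaur and Jag1 (-1.10) in DESeq2. On these libraries the limma fit called 23.7% of all genes in either direction and the DESeq2 fit 16.2%. Plgrkt passed under none of the settings run. With libraries left out, signs also turned for Itga3 (range -0.890 to 0.0428), Itgb1 (-0.0842 to 0.188, and -0.0232 with the replicate block without replicate 3 in limma and DESeq2), Junb (-0.156 to 1.03), Krt18 (-0.0661 to 0.673), Vldlr (-0.310 to 0.287), Serpini1 (-0.288 to 0.0938) and Sort1 (-0.573 to 0.556), for which the cause was not tested. On replicates 2 and 3, Serpini1 was at 0.105 and Sort1 at 0.0430 in limma with or without the replicate block, and at 0.105 and 0.0427 in DESeq2 with the block.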
